A study of Macaca mulatta with 28 samples.

Results

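The comparison described here is between 2 groups of old male rhesus macaques that the deposited table calls OTDHEA and ONTC. OTDHEA comprised the 5 animals numbered 20 to 24 and ONTC the 5 animals numbered 25 to 29, which together are 10 of the 28 animals of the series. The members were taken by animal number, and for each group the mean over its 5 animals equals the group mean that the authors computed in the table. The other animals form the authors' groups OC (8 animals, 19.96 to 27.76 years) and YC (10 animals, 8.06 to 14.72 years), which serve only as context. The comparison is called hormone-treated against non-treated old animals here, but no agent, dose, duration or control procedure is given in the sources used here, and the group names are not spelled out there, so the groups are called only by these names.

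The OTDHEA animals were 24.15, 22.01, 24.69, 24.07 and 21.63 years old (animals 20 to 24). The ONTC animals were 24.46, 24.13, 20.27, 25.83 and 17.36 years old (animals 25 to 29). Mean age was 23.3 ± 1.39 years (SD, n = 5) in OTDHEA and 22.4 ± 3.50 years (SD, n = 5) in ONTC, a difference of 0.9 years that was within the spread between animals (exact permutation test, two-sided, p = 0.603). The ONTC group held both the oldest and the youngest of the 10 animals, and without the animal of 17.36 years the sign of the age difference turned, to -0.362 years.

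Hippocampal gene expression was measured by RNA-seq, with 1 library per animal, and is given as CPM, reads on the gene for each M reads of the library that fell on listed genes. The reads behind each OTDHEA library ranged from 44.8 to 98.5 M (median 64.7 M) and behind each ONTC library from 57.9 to 169 M (median 102 M), so ONTC was on the whole sequenced more deeply although the groups did not differ beyond their spread (exact permutation test, two-sided, p = 0.159, n = 5 per group). A floor of 3 reads corresponded to between 0.0178 and 0.0670 CPM in these libraries. The defining markers of hippocampal tissue were present in all 10 animals. The 8 neuron markers summed to 4263 to 7489 CPM in OTDHEA and 2759 to 7705 CPM in ONTC, and the dentate granule cell marker PROX1 was at 3.29 to 25.8 CPM.

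Steroid hormones act on the hippocampus through intracellular receptors that bind DNA, and neurons and glia also modify steroids locally. HSD11B1 regenerates cortisol from inactive cortisone, using the cofactor supplied by H6PD, while sulfotransferases and the sulfatase STS move steroids such as dehydroepiandrosterone between the free and the sulfated form. FKBP5 and TSC22D3 are textbook targets of the glucocorticoid receptor and are commonly read as its output.

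Across the 16212 genes tested, none differed between OTDHEA and ONTC at an adjusted p under 0.05 in limma (0% called), and the smallest adjusted p was 1.00. At an unadjusted p under 0.05 limma gave 140 genes (0.864% of those tested, against the nominal 5%), of which 66 were higher (0.407%) and 74 lower (0.456%) in OTDHEA. In 26 genes (0.16%) the 5 OTDHEA values did not overlap the 5 ONTC values, with OTDHEA above in 16 genes (0.0987%) and below in 10 genes (0.0617%). Random assignment of 5 against 5 animals would on average separate a share of 0.00794 of genes, which is more than the 0.16% found. On the recovered reads, edgeR's exact test called 2 genes at an adjusted p under 0.05 (0.0123%), FGD3 and APOH, both lower in OTDHEA, and 202 genes at an unadjusted p under 0.05 (1.25%). DESeq2 and limma with sample quality weights called the same pair of genes (0.0123% each), and edgeR's quasi-likelihood test called none (0%). The 95% interval of a gene's log2 difference had a median half-width of 0.78, or 1.71-fold, with no adjustment for the number of genes tested.

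Animals 23 (OTDHEA) and 28 (ONTC) stood apart from the rest, and values without both are given beside several of the genes and lists. In animal 28, 44.1% of genes deviated more than 2-fold from the median of the other 9 animals, against 23.7% in animal 23, 16% in animal 29 and 4.34 to 10.4% in the other 7. Their median correlation with the other libraries was 0.885 for animal 28 and 0.927 for animal 23, against 0.936 to 0.959 in the others. Leaving out animal 28 brought the genes at an unadjusted p under 0.05 in limma to 626 and leaving out animal 23 to 290, with none at an adjusted p under 0.05 in either case. Without both animals there were 628 such genes, 295 higher and 333 lower in OTDHEA.

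FGD3, an activator of the small GTPase CDC42, was lower in every OTDHEA animal than in any ONTC animal. It lies on chromosome 15 of Mmul_10 (chr15:107911200-107999309, plus strand, 8 annotated transcripts with 18 to 19 exons) and shares part of its span with LOC114672849 on the opposite strand. FGD3 was at 4.58, 3.27, 5.18, 3.34 and 3.33 CPM in OTDHEA animals 20 to 24, and at 6.52, 17.3, 37.0, 80.2 and 21.5 CPM in ONTC animals 25 to 29. The OTDHEA values were tightly grouped while those of ONTC were spread over a range of 6.52 to 80.2 CPM, with animal 28 highest and animal 25 close to OTDHEA. Mean FGD3 was 3.94 ± 0.885 CPM (SD, n = 5) in OTDHEA and 32.5 ± 28.8 CPM (SD, n = 5) in ONTC, or 20.6 ± 12.6 CPM (SD, n = 4) without animal 28. The log2 difference was -2.60 ± 0.53 (SE, limma p = 0.000269, limma adjusted p = 1.00), and the exact permutation p was 0.00794, the smallest that 5 against 5 animals can give. Any gene whose groups do not overlap has this exact permutation p. FGD3 was named from this same contrast, so the value is no further evidence. Without animals 23 and 28 the log2 difference of FGD3 was -2.11. With edgeR's exact test FGD3 had a log2 difference of -3.10 and an adjusted p of 0.00137, which became 0.0576 without animal 24. With any other single animal left out, the adjusted p of edgeR's exact test for FGD3 lay between 3.78e-07 and 0.0243.

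The low FGD3 level of OTDHEA was also the usual level outside the compared groups. In OC, FGD3 had a median of 4.85 CPM, and 2 of 8 animals exceeded the highest OTDHEA animal, at 45.5 and 28.7 CPM. In YC the median was 4.50 CPM and 4 of 10 animals exceeded it, at 20.1, 41.0, 6.66 and 6.15 CPM. Thus high FGD3 values occurred in single animals of every group but OTDHEA, and ONTC was the group in which all 5 animals were above the OTDHEA range.

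APOH encodes beta-2-glycoprotein I, a plasma protein made mainly by the liver, and was near the detection floor in the hippocampus of OTDHEA animals. It lies at chr16:62593722-62612041 (Mmul_10, minus strand, 1 annotated transcript with 8 exons). APOH was at 0.156, 0.0105, 0.0309, 0.223 and 0.0670 CPM in animals 20 to 24, which rests on 8, 1, 2, 22 and 3 reads. In ONTC animals 25 to 29 it was at 0.426, 1.67, 1.40, 0.694 and 3.58 CPM, from 34, 192, 81, 117 and 367 reads. Every ONTC animal was above every OTDHEA animal, and animal 29, the youngest, was highest. The log2 difference of APOH was -4.09 ± 0.76 (SE, limma p = 0.000123, limma adjusted p = 1.00), with an adjusted p of 0.00871 in edgeR's exact test. The exact permutation p of 0.00794 was, as for FGD3, fixed by the lack of overlap. APOH averaged 0.0975 CPM in OTDHEA and 1.55 CPM in ONTC. It thus passed the limit of 0.3 CPM for testing only through ONTC, and its p-values are given as a description. The adjusted p of edgeR's exact test for APOH rose to 0.0501 without animal 20, 0.154 without animal 22, 0.210 without animal 24 and 0.0780 without animal 29. In OC, 4 of 8 animals were above the highest OTDHEA animal (median 0.538 CPM, highest 4.02 CPM), whereas 0 of 10 YC animals were, with a range of 0.0163 to 0.161 CPM.

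**Figure D1:**
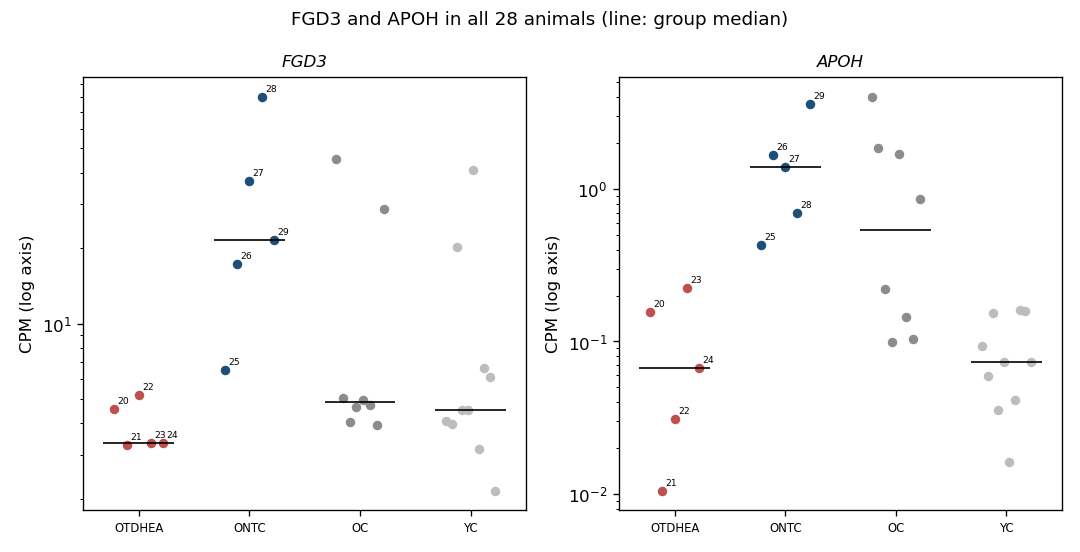
CPM of FGD3 and APOH on log axes in each of the 28 animals by group (points; the line is the group median; numbers name OTDHEA and ONTC animals). All 5 ONTC animals lie above all 5 OTDHEA animals for both genes, and single OC animals reach 45.5 CPM for FGD3 and 4.02 CPM for APOH.

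The 250 bases before the annotated start of these genes are shown because FGD3 and APOH were the only genes called by any count test with all 10 animals. They were read from the RefSeq annotation and genome of Mmul_10, 5′ to 3′ on the gene's strand, with FGD3 at chr15:107910950-107911199 (plus strand) and APOH at chr16:62612042-62612291 (minus strand). The hexamer TGTTCT, which occurs in steroid receptor response elements, was searched on both strands and would be in capitals.
FGD3: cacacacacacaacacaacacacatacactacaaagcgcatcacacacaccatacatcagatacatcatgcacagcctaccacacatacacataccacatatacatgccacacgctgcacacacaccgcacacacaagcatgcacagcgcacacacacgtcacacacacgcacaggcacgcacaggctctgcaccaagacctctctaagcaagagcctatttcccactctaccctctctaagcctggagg
APOH: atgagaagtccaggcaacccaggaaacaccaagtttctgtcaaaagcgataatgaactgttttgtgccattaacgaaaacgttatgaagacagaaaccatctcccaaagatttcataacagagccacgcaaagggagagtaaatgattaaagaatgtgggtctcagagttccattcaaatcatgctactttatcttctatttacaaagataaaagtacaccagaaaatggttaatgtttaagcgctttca
Neither window held the hexamer, which 2294 of 20787 promoters of this length did (11.0%). The FGD3 window held the dinucleotide CA 63 times, against a median of 16 over all promoters, and 0.0289% of promoters held it at least as often. The APOH window held it 22 times, which 13.2% of promoters reached. CA is the repeat visible in the FGD3 window printed above, so its rank there follows from the choice of dinucleotide and is a description. FGD3 has 8 annotated transcripts, and which start is used in the hippocampus was not tested.

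The enzymes that make and inactivate steroids gave no gene that passed the adjusted test. Of 28 measured genes for steroid enzymes, 0 passed the adjusted threshold in limma (0% of all genes did) and 1 had an unadjusted p under 0.05, against 0.864% of all genes tested. The difference was negative in 19 and positive in 9, with a median of -0.16 against 0.02 over all 16212 genes tested, of which 8532 (52.6%) were positive. HSD11B1 was at 6.63, 6.51, 9.59, 12.2 and 5.11 CPM in OTDHEA animals 20 to 24 and at 7.76, 15.1, 8.40, 5.75 and 18.4 CPM in ONTC animals 25 to 29. The groups overlapped, and the higher ONTC mean (11.1 ± 5.39 CPM, SD, n = 5, against 8.01 ± 2.85 CPM, SD, n = 5) came from animals 26 and 29. The log2 difference of HSD11B1 was -0.40 ± 0.37 (SE, 95% interval -1.21 to 0.40, exact permutation test, two-sided, p = 0.310, limma adjusted p = 1.00). Without animals 23 and 28 it was -0.77 (exact permutation test, p = 0.0857, 4 against 4 animals, and unadjusted limma p = 0.0355), and among animals of 23 to 28 years it was 0.07 (3 against 3 animals). It was -0.19 without animal 29 and -0.26 without animal 24 or animal 26 (exact permutation tests, p = 0.603, 0.532 and 0.548). HSD11B1 lies at chr1:67209536-67239875 (Mmul_10, plus strand) and overlaps C1H1orf74 on the opposite strand, and whether the authors' counting used the strand is not given in the sources used here.

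H6PD, which supplies the cofactor of HSD11B1, was at 7.27 ± 1.59 CPM (SD, n = 5) in OTDHEA and 7.51 ± 2.65 CPM (SD, n = 5) in ONTC. Its log2 difference was 0.00 ± 0.31 (SE, 95% interval -0.67 to 0.68), its sign turned under both other scalings, and without animals 23 and 28 it was 0.03. SULT2B1, a sulfotransferase of cholesterol and pregnenolone, was the steroid enzyme with the smallest p. It was at 0.195, 0.147, 0.217, 0.477 and 0.156 CPM in OTDHEA animals 20 to 24 and at 0.213, 4.14, 1.02, 0.475 and 0.507 CPM in ONTC animals 25 to 29. The groups overlapped, and animal 26 alone held most of the ONTC signal. The log2 difference of SULT2B1 was -1.75 ± 0.69 (SE, limma p = 0.0250, limma adjusted p = 1.00), or -1.13 without animal 26, and the limma p reached 0.0648 when 1 animal was left out. STS, which removes the sulfate from steroids, averaged 5.74 CPM in OTDHEA and 3.74 CPM in ONTC, a log2 difference of 0.68 ± 0.46 (SE, limma p = 0.160). CYP19A1, the aromatase that makes estrogens, was low at 0.312 and 0.520 CPM, and AKR1C3 averaged 146 and 197 CPM, with limma p-values of 0.191 and 0.111. STS, CYP19A1 and AKR1C3 were singled out after their values were seen.

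**Figure D2:**
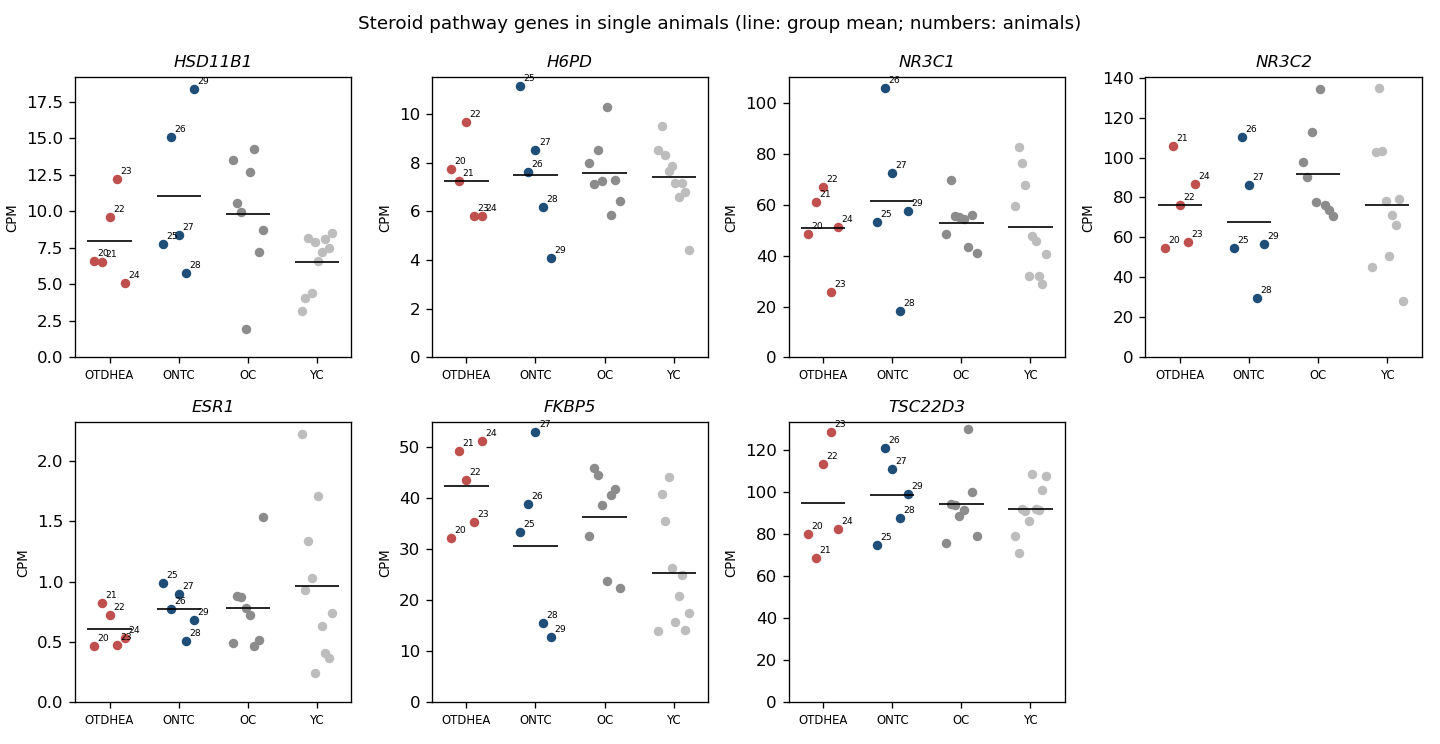
CPM of 7 genes of steroid metabolism and action in each of the 28 animals by group (points; the line is the group mean; numbers name OTDHEA and ONTC animals; axes start at 0). OTDHEA and ONTC overlap for each of the 7 genes, and for FKBP5 the 2 lowest ONTC points, animals 28 and 29, are at 15.5 and 12.8 CPM.

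The steroid receptors were alike in count of positive and negative differences. Of 14 measured receptor genes, 8 were positive and 6 negative, with a median log2 difference of 0.03 (-0.01 with median-of-ratios scaling, -0.03 without animals 23 and 28). No receptor gene had an unadjusted p under 0.05 in limma, against 0.864% of all genes tested. NR3C1, the glucocorticoid receptor, was at 48.5, 61.1, 66.9, 25.6 and 51.4 CPM in OTDHEA animals 20 to 24 and at 53.3, 106, 72.6, 18.3 and 57.6 CPM in ONTC animals 25 to 29. The lowest value in each group was that of animal 23 or 28. The log2 difference of NR3C1 was -0.15 ± 0.42 (SE, 95% interval -1.06 to 0.77, exact permutation test, two-sided, p = 0.762), -0.30 without animals 23 and 28 (exact permutation test, p = 0.286), -0.53 without animal 28 alone and 0.08 without animal 23 alone. NR3C2, the mineralocorticoid receptor, which binds cortisol with the higher affinity, averaged 76.4 ± 21.1 CPM (SD, n = 5) in OTDHEA and 67.5 ± 31.1 CPM (SD, n = 5) in ONTC, a log2 difference of 0.27 ± 0.34 (SE, exact permutation test, p = 0.532), which was 0.10 without animals 23 and 28 and 0.0085 without animal 28 alone.

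The estrogen receptor ESR1 was low throughout, at 0.468 to 0.821 CPM in OTDHEA and 0.510 to 0.990 CPM in ONTC, from 24 to 89 reads per animal. Its log2 difference was -0.35 ± 0.36 (SE, exact permutation test, p = 0.167).

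Genes that respond to steroid hormones were split between both directions. Among 30 measured glucocorticoid-responsive genes, 16 were positive and 14 negative, with a median log2 difference of 0.04 (0.08 without animals 23 and 28). Among 33 androgen-responsive genes 15 were positive and 18 negative (median -0.01, or -0.14 without both animals), and among 15 estrogen-responsive genes 9 were positive and 6 negative (median 0.16, or 0.10). None of these genes had an unadjusted p under 0.05 in limma, against 0.864% of all genes tested. At that share lists of this size hold few such genes or none. FKBP5, a co-chaperone that restrains the glucocorticoid receptor, was at 32.3, 49.3, 43.6, 35.3 and 51.3 CPM in OTDHEA animals 20 to 24 and at 33.4, 38.8, 52.9, 15.5 and 12.8 CPM in ONTC animals 25 to 29. Animals 28 and 29 were below all others and the remaining 3 ONTC animals lay within or just above the OTDHEA range. The log2 difference of FKBP5 was 0.64 ± 0.38 (SE, 95% interval -0.17 to 1.45, exact permutation test, two-sided, p = 0.206). Without animal 27 it was 0.89 (exact permutation test, p = 0.0476, 5 against 4 animals), 0.37 without animal 29 (exact permutation test, p = 0.389), and -0.02 with sample quality weights. TSC22D3, an anti-inflammatory target of the same receptor, averaged 94.7 ± 25.3 CPM (SD, n = 5) in OTDHEA and 98.8 ± 18.3 CPM (SD, n = 5) in ONTC, a log2 difference of -0.08 ± 0.24 (SE, exact permutation test, p = 0.706), or -0.24 without animals 23 and 28. Of 17 receptor chaperones and coregulators, 11 were positive and 6 negative (median 0.09), and HSP90AB1, the most abundant, differed by 0.01 on the log2 scale. The 20 genes of cholesterol synthesis had a median of 0.15 with 13 positive (0.06 without animals 23 and 28), and the 18 circadian clock genes a median of 0.16 with 13 positive.

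The 10 symbol genes with the smallest limma p in each direction were chosen from this contrast, so their values are given as a description, and separation of their groups follows from the choice. The 19 reported here had a limma adjusted p of 1.00, and in 7 of them the groups did not overlap, as in 0.16% of all genes tested.

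Among the genes higher in OTDHEA, ADARB2, a brain-enriched relative of the RNA-editing deaminases, was at 2.75, 5.22, 3.79, 2.68 and 3.66 CPM in OTDHEA animals 20 to 24 and at 1.93, 1.74, 1.73, 1.53 and 0.693 CPM in ONTC animals 25 to 29. The groups did not overlap, with a log2 difference of 1.28 ± 0.36 (SE). RXFP3, the receptor of the neuropeptide relaxin-3, was at 0.429 to 1.22 CPM in OTDHEA and 0.137 to 0.449 CPM in ONTC, a log2 difference of 1.58 ± 0.46 (SE) that rests on 14 to 116 reads per animal. FZD7, a Wnt receptor, was at 8.60 to 26.6 CPM against 4.51 to 12.3 CPM (1.09 ± 0.37, SE). LZTS1, a protein of the postsynaptic density, was at 8.95 to 17.6 CPM against 5.61 to 8.51 CPM without overlap (0.76 ± 0.27, SE). IGDCC3, AMZ1 and NEURL1B overlapped between the groups and had log2 differences of 1.00, 0.99 and 1.04.

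VIPR2, a receptor for vasoactive intestinal peptide and for PACAP, was at 3.80, 2.94, 3.279, 3.02 and 2.34 CPM in OTDHEA animals 20 to 24 and at 2.65, 1.10, 1.14, 2.21 and 1.20 CPM in ONTC animals 25 to 29. Only animal 24 lay below the highest ONTC animal, and the log2 difference was 0.97 ± 0.35 (SE, limma p = 0.0150, limma adjusted p = 1.00). ADCYAP1, which encodes PACAP and was named as a list member, was at 2.44, 9.91, 4.10, 4.58 and 2.99 CPM in OTDHEA against 1.75, 1.08, 3.68, 2.40 and 2.15 CPM in ONTC, in the same order of animals. The groups overlapped, with a log2 difference of 1.04 ± 0.43 (SE, limma p = 0.0315, limma adjusted p = 1.00). Leaving out 1 animal, the log2 difference of ADCYAP1 was 0.74 at its lowest and the limma p reached 0.0974. Of the 23 measured genes for neuropeptides and trophic factors, ADCYAP1 was the only member with an unadjusted p under 0.05 (0.864% of all genes), and 16 were positive (52.6% of all genes; median 0.10, or -0.0033 without animals 23 and 28). VIP, the other ligand of VIPR2, averaged 8.85 CPM in OTDHEA and 9.24 CPM in ONTC, a log2 difference of 0.03 ± 0.36 (SE).

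NR4A3 is an orphan nuclear receptor that neuronal activity induces within minutes, and is the only listed immediate early gene with an unadjusted p under 0.05 in limma, against 0.864% of all genes. It was at 25.2, 49.5, 27.4, 30.5 and 34.0 CPM in OTDHEA animals 20 to 24 and at 18.3, 20.5, 23.5, 7.82 and 19.0 CPM in ONTC animals 25 to 29. No values overlapped, animal 28 was lowest, and the log2 difference was 0.95 ± 0.32 (SE, limma p = 0.0113), or 0.70 without animals 23 and 28. Of the 17 measured immediate early genes 14 were positive, with a median of 0.30. EGR3 (0.64 ± 0.36, SE) and ARC (0.72 ± 0.43, SE), both induced by synaptic activity, were the next largest and did not pass the unadjusted threshold in limma.

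Among the genes lower in OTDHEA, HAMP, the iron hormone hepcidin, was at 0.526, 0.242, 0.882, 1.10 and 0.625 CPM in OTDHEA animals 20 to 24 and at 1.30, 1.12, 1.73, 2.07 and 1.27 CPM in ONTC animals 25 to 29. The values did not overlap, although animals 23 and 26 were close, and the log2 difference was -1.27 ± 0.43 (SE). Mamu-B, a class I major histocompatibility gene, was at 27.3 to 68.5 CPM in OTDHEA and 53.1 to 239 CPM in ONTC (-1.20 ± 0.40, SE), and its reads may be shared with near-identical copies. UBD, a ubiquitin-like modifier induced by inflammatory cytokines, was at 0.156 to 0.463 CPM against 0.296 to 1.81 CPM (-1.53 ± 0.54, SE). RNASE6, an antimicrobial ribonuclease of myeloid cells, was at 5.51 to 12.7 CPM against 11.6 to 20.9 CPM (-0.85 ± 0.30, SE). APOL2, an apolipoprotein L, was at 16.8 to 32.2 CPM against 30.4 to 41.6 CPM (-0.73 ± 0.25, SE). RDH12, a retinal reductase, was at 4.70 to 9.84 CPM against 10.104 to 17.7 CPM without overlap (-0.90 ± 0.29, SE). PAEP, a lipocalin, was at 3.34 to 12.5 CPM against 9.43 to 97.8 CPM (-2.02 ± 0.63, SE, or -1.37 without animals 23 and 28), with animals 25 and 28 far above the rest. NCAPG, a condensin subunit of dividing cells, was at 0.122 to 0.312 CPM against 0.273 to 0.709 CPM (-1.28 ± 0.43, SE).

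**Figure D3:**
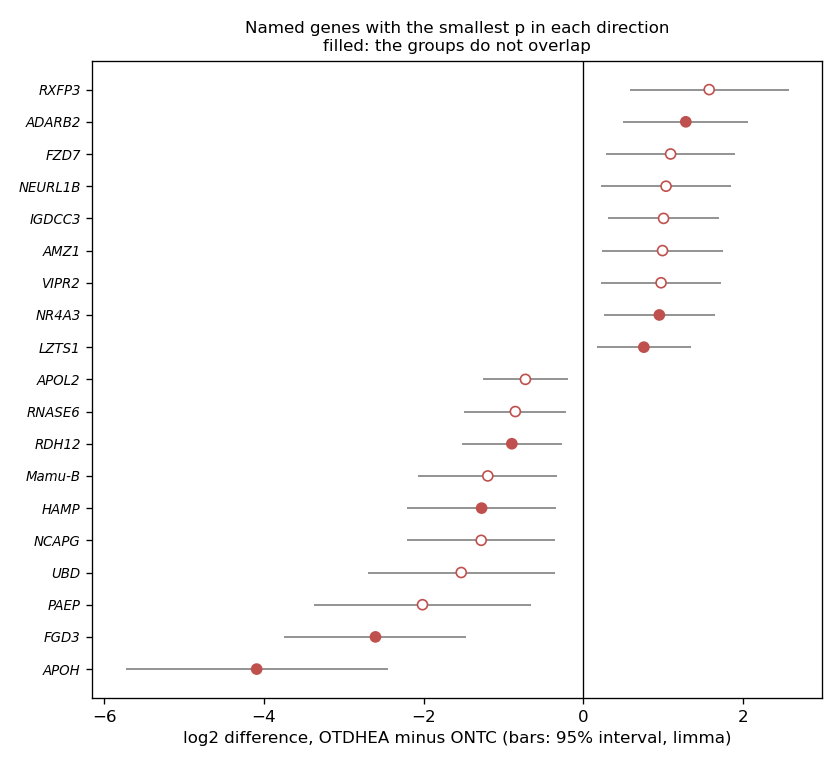
Log2 difference, OTDHEA minus ONTC, of 19 genes among those with the smallest limma p in each direction (points; bars are 95% intervals; filled points mark genes whose groups do not overlap). RXFP3 lies at 1.58 and APOH at -4.09, and 7 of the 19 genes, chosen by their small p, are filled.

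The 8 OC animals give the level of these genes in other old animals. NR4A3 in OC ranged from 24.8 to 41.5 CPM and LZTS1 from 13.2 to 25.98 CPM, so every OC animal was above the highest ONTC animal for both genes (23.5 and 8.51 CPM). For NR4A3 the OTDHEA range of 25.2 to 49.5 CPM overlapped that of OC, whereas for LZTS1 all OTDHEA animals but animal 22 (17.6 CPM) were below the lowest OC animal. VIPR2 in OC ranged from 0.270 to 2.64 CPM with a median of 1.11 CPM, below the lowest OTDHEA animal (2.34 CPM). RDH12 and HAMP in OC ranged from 5.15 to 16.3 CPM and from 0.238 to 0.982 CPM. These placements were not tested.

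Inflammation and complement genes had the largest share of negative differences among the lists that are not cell type markers. Of 23 measured members, 22 were negative, with a median log2 difference of -0.48 against 0.02 over all genes tested. No member had an unadjusted p under 0.05 in limma, against 0.864% of all genes. The lowest members, named after their values were seen, were the chemokine CCL2 (-1.18 ± 0.56, SE, limma p = 0.0549), the protease inhibitor SERPINA3 (-1.02 ± 0.63, SE, limma p = 0.128) and the complement protease C1S (-0.94 ± 0.46, SE, limma p = 0.0618). The abundant cytokine SPP1 was at 400, 225, 560, 668 and 293 CPM in OTDHEA animals 20 to 24 and at 486, 468, 692, 446 and 786 CPM in ONTC animals 25 to 29. Animals 20, 21 and 24 were below every ONTC animal and the other 2 OTDHEA animals within the ONTC range, with a log2 difference of -0.50 (limma p = 0.138), or -0.77 without animals 23 and 28 (limma p = 0.0274, unadjusted) and from -0.69 to -0.29 leaving out 1 animal. In animal 28 of ONTC, 11 of the 23 members were more than 2-fold above the median of the other 9 animals. Without animals 23 and 28 the list median was -0.45. Of 19 interferon-stimulated genes 10 were positive (median 0.05). OASL, an antiviral protein, was the only one with an unadjusted p under 0.05, against 0.864% of all genes (-1.33 ± 0.53, SE, limma p = 0.0245). The limma p of OASL was 0.0825 without animals 23 and 28, and it reached 0.0690 when 1 animal was left out. In these bulk samples fewer cells of a type and less RNA per cell cannot be told apart, and the 9 microglia markers summed to 243 to 477 CPM in OTDHEA and 257 to 534 CPM in ONTC, with 8 of 9 negative. C1QA, C1QB, TREM2 and TYROBP are in both the microglia list and the inflammation list. The part of microglial content in the inflammation result was not tested.

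Synaptic genes were mostly positive. Of 19 measured synaptic vesicle and postsynaptic density genes 18 were positive (median 0.31), against 52.6% of all genes tested, of 22 glutamate receptor subunits 19 (median 0.29), and of 14 GABA-A receptor subunits 12 (median 0.27). Only GRIK2, a kainate receptor subunit, had an unadjusted p under 0.05 in limma, against 0.864% of all genes. GRIK2 was at 26.9, 62.2, 38.9, 31.3 and 57.8 CPM in OTDHEA animals 20 to 24 and at 28.4, 29.9, 35.5, 11.1 and 21.9 CPM in ONTC animals 25 to 29. Animals 21, 22 and 24 were above every ONTC animal, and the log2 difference was 0.80 ± 0.35 (SE, limma p = 0.0403, limma adjusted p = 1.00), or 0.53 without animal 28, and the limma p reached 0.104 when 1 animal was left out. The GABA-A median was 0.05 without animals 23 and 28, and the synaptic and glutamate receptor medians were then 0.33 and 0.33. All 8 neuron markers were positive as well, and SNAP25 and SYT1 are in both lists. Relative to the other 9 animals the synaptic list had a median of -0.70 in animal 28, -0.51 in animal 29 and -0.27 in animal 23, the 3 animals in which long transcripts were lowest. The part of neuron content and transcript length in these medians was not tested. CAMK2A, the most abundant synaptic gene, was at 2693 to 4698 CPM in OTDHEA and 1961 to 3306 CPM in ONTC. Oxidative phosphorylation genes had small differences, 17 of 19 negative with a median of -0.14. Relative to the other 9 animals this list had a median of 0.38 in animal 28, 0.39 in animal 29 and 0.56 in animal 23. The 8 heat shock genes had a median of -0.09 (7 negative) and the 14 amyloid, tau and TDP-43 genes one of 0.08 (8 positive), which became 0.01 and 0.04 without animals 23 and 28.

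**Figure D4:**
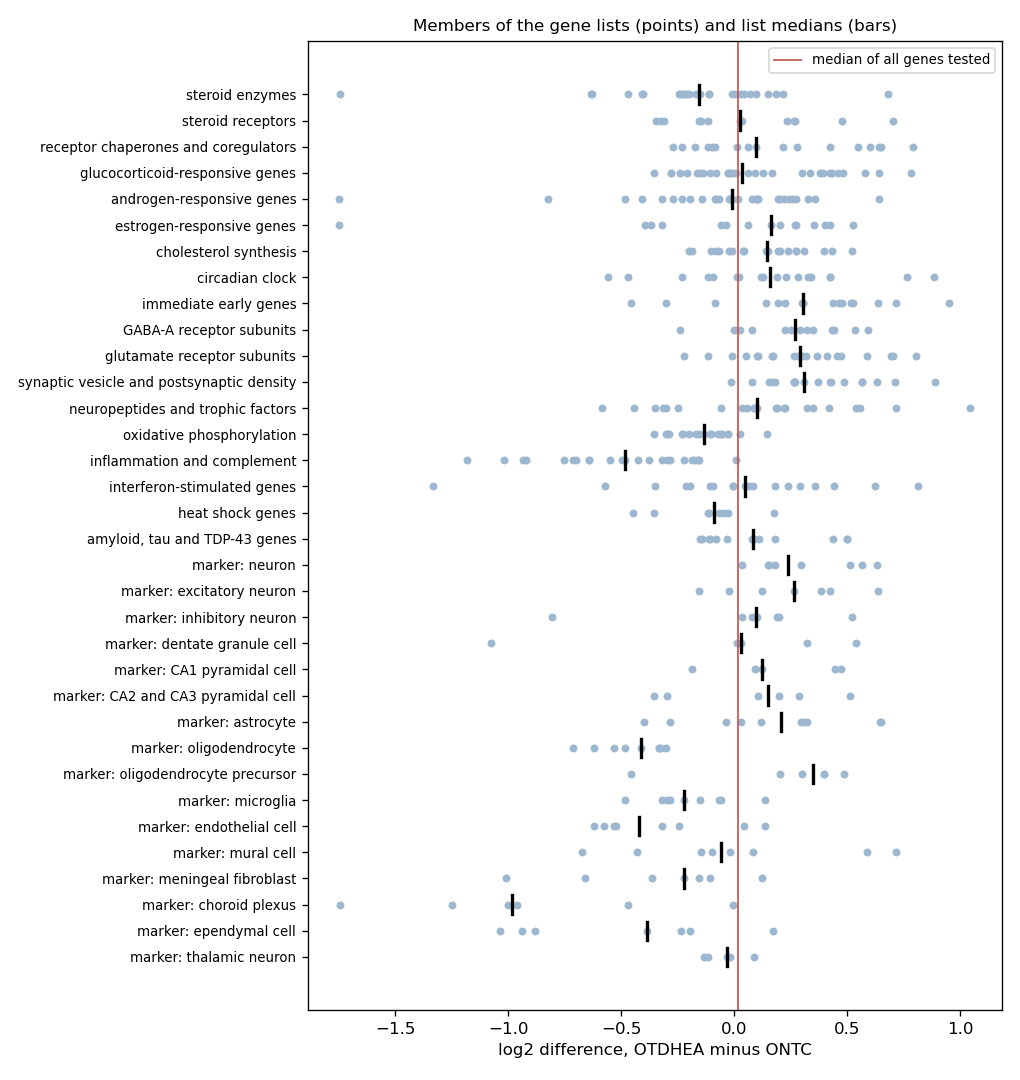
Log2 difference, OTDHEA minus ONTC, of each measured member of the gene lists with at least 5 members tested (points), with each list's median (bars) and the median of all genes tested (vertical line, 0.02). Inflammation and complement genes have a median of -0.48 and synaptic genes one of 0.31.

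No marker score of the cell types that a hippocampal dissection can hold passed the test between the groups. Scores of 18 marker lists gave exact permutation p-values from 0.135 to 0.968 (two-sided, n = 5 per group), and the adjusted p-values were 0.837 or higher. With equal upper quartiles the excitatory neuron score had an exact permutation p of 0.0317 (adjusted p = 0.571). The ependymal cell score had the same exact permutation p of 0.0317 without animal 22 (adjusted p = 0.571). All 8 neuron markers were positive (median 0.24), and SNAP25 reached both its lowest value, 964 CPM in animal 28, and its highest, 4164 CPM in animal 26, within ONTC. All 9 measured oligodendrocyte markers were negative (median -0.41), with summed levels of 8596 to 24846 CPM in OTDHEA and 12413 to 23979 CPM in ONTC. The 6 measured choroid plexus markers were negative (median -0.98), and TTR, the transport protein that the choroid plexus makes in great amounts, was at 60.7, 11.1, 583, 331 and 13.4 CPM in OTDHEA and at 776, 10.3, 1772, 93.6 and 99.5 CPM in ONTC. TTR thus ranged widely among animals within both groups, and the part of choroid plexus content in any difference was not tested. Among 10 astrocyte markers 7 were positive, and FGFR3 (64.5 to 106 CPM against 28.1 to 84.2 CPM, log2 difference 0.64 ± 0.30, SE, limma p = 0.0490) was the only marker of any list with an unadjusted p under 0.05, against 0.864% of all genes. The log2 difference of FGFR3 was 0.41 without animal 29 and 0.58 with age as a covariate (limma p = 0.0695), and 0.28 in animals of 23 to 28 years (3 against 3 animals). The other 14 marker lists had median log2 differences from -0.42 (endothelial cell) to 0.39 (blood). Of the 7 blood markers only 1 was measured and of the 7 T cell markers 3, so these scores rest on few genes.

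Long transcripts were low in animals 23, 28 and 29 and high in animal 21. The 13730 genes with a RefSeq transcript (84.7% of those tested) were divided into 5 equal parts by the length of the longest transcript. In the longest part, of at least 5601 bases, the median deviation from the other 9 animals on the log2 scale was -1.35 in animal 28, -0.85 in animal 23 and -0.73 in animal 29. In the other 7 animals it lay between -0.16 and 0.43. In the shortest part, up to 1873 bases, the same 3 animals were at 0.40, 0.48 and 0.35 and the other 7 between -0.25 and 0.05. Across genes, which are not independent replicates, the Spearman correlation of the deviation with transcript length was -0.46 in animal 28, -0.56 in animal 23, -0.50 in animal 29 and 0.51 in animal 21. With the GC content of the transcript it was 0.79 in animal 28 and 0.59 in animal 23 but -0.34 in animal 29, so these 3 animals did not share 1 pattern. Of these 3 animals, 1 was in OTDHEA and 2 in ONTC, and the part of this pattern in the differences of long genes was not tested.

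**Figure D5:**
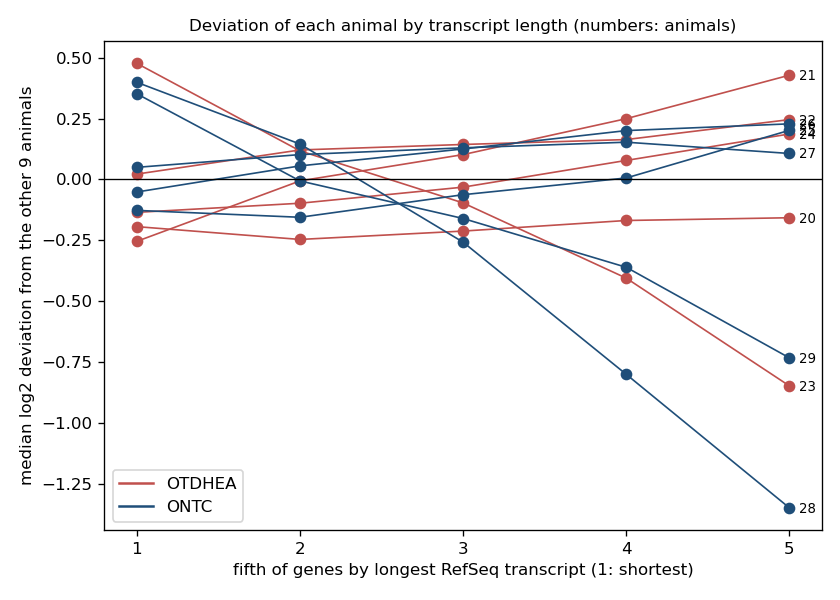
Median log2 deviation of each of the 10 animals from the other 9, in 5 equal parts of 13730 genes ordered by the length of the longest RefSeq transcript (1, shortest; 5, longest; lines are animals, coloured by group). Animals 28, 23 and 29 descend to -1.35, -0.85 and -0.73 in the longest part, while the other 7 end between -0.16 and 0.43.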

How the data were processed

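Poly(A) RNA of the hippocampus was sequenced from TruSeq stranded mRNA libraries. The authors' methods name STAR, the Ensembl annotation of Mmul_10, and edgeR with upper quartile normalization and its exact test, whereas the submitters' processing notes name FastQC, STAR, featureCounts and DESeq2. The authors deposited a signal per gene, a normalized count, in 1 table of 16350 genes and 28 animals with their group means and SDs. All columns sum to the same total, so the signal divided by this total is CPM, and its upper quartiles over the non-zero values differ between animals (3045 to 4242), so the values do not carry the upper quartile normalization named. Whole reads were recovered from 100% of the values to within 0.001, with no raw counts at hand, and no column of single animals was left out. The last SD column repeats the header for OTDHEA but holds the SD of ONTC.

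Sample labels give age, sex and tissue but no group, so membership follows the animal numbers and the authors' group means. Genes averaging 0.3 CPM or more in the 10 animals were tested with limma 3.58.1 (R 4.3.3, trended variance) on log2(value + 0.5), with Benjamini-Hochberg adjustment. A log2 difference is on this scale, where 0.5 equals 0.00666 CPM. Single genes, scores and ages were compared by exact permutation over 252 assignments, two-sided (Python 3.11.15 with pandas 2.3.3, numpy 2.4.6, scipy 1.17.1). On recovered reads, edgeR 4.0.16 (exact and quasi-likelihood tests) and DESeq2 1.42.0 were alternatives, beside pseudocounts of 0.1 and 1, 2 other scalings, other filters, age as a covariate, all 28 animals in the fit, sample quality weights, animals of 23 to 28 years and leaving out animals. Leaving out animals 23 and 28 together, and leaving out each animal in edgeR's exact test, were chosen after seeing the data. The main limma fit, edgeR's exact and quasi-likelihood tests and DESeq2 were tested on simulated data with a common dispersion. That simulation held no animals that stand apart, and the other settings, sample quality weights among them, were not simulated. Symbols came from the table for 13793 genes and from a name table for 561 more. Positions follow RefSeq for Mmul_10.

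The members, gene lists (18, with 18 further lists of cell type markers) and tests were chosen with earlier results of these data known. Named genes are HSD11B1, H6PD, NR3C1, NR3C2, ESR1, FKBP5 and TSC22D3, the 10 symbol genes with the smallest limma p in each direction, and from each list up to 4 members with an unadjusted p under 0.05 or else its most abundant member. Some genes that this rule would name are not reported here. Other names were chosen after their values were seen. The labels name separate animals, and p-values measure the spread between them.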

Additional observations from a re-analysis of the deposited data

Results flagged for a closer look

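Of the 160 sets of 5 values examined, 14 had 1 animal far from the other 4 of its group (Dixon's test), where chance gives about 1 in 20. In ONTC, animal 28 was far above the other 4 on the first principal component (141.6) and for CLU (5765 CPM), the chaperone clusterin, and far below them for NR4A3 (7.82 CPM). In OTDHEA, animal 23 was far above the others on the first principal component (72.6) and for the pyramidal cell marker PCP4 (552 CPM). ONTC animal 25 was far above its group for DCN (148 CPM), a marker of meningeal fibroblasts, and far below it for HSP90AB1 (1351 CPM), CD3E (4.20 CPM) and the T cell score (-0.906). ONTC animals 29 and 26 were low for ADARB2 (0.693 CPM) and RNASE6 (11.6 CPM). OTDHEA animal 22 was high for OASL (0.727 CPM) and the ependymal cell score (0.709), and OTDHEA animal 21 was high for the excitatory neuron score (0.791). The first principal component held 43.7% of the variance among the 10 animals.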

How the results depend on the processing

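With 5 animals per group, the unadjusted 95% interval of a typical gene reached 1.71-fold to either side, and the limma adjusted p did not pass even for FGD3 (log2 difference -2.60) and APOH (-4.09). APOH, RXFP3, UBD, HAMP and SULT2B1 rest on few reads in some animals. APOH, UBD, NCAPG, SULT2B1 and OASL averaged under 0.3 CPM in OTDHEA and passed that limit only through ONTC. RXFP3 averaged under 0.3 CPM in ONTC and passed only through OTDHEA. APOH was below 0.3 CPM in every OTDHEA animal. The count of 0 genes at an adjusted p under 0.05 in limma became 2 with sample quality weights, edgeR's exact test and DESeq2, all FGD3 and APOH. Leaving out 1 animal it stayed at 0 in limma and ranged from 0 (without animal 24) to 4 (without 28) in edgeR's exact test, with 3 genes without animal 21, where FTCD was added, and 3 without animal 26, where PAEP was added. IL15 and CLTRN were added without animal 28.

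Genes at an unadjusted p under 0.05 numbered 232 (123 higher in OTDHEA) with all 28 animals in the fit, 2199 (633 higher, 1566 lower) with quality weights, 261 (178 lower) with DESeq2, 37 (13 higher, 24 lower) in animals of 23 to 28 years, and 628 (295 higher, 333 lower) without animals 23 and 28. The fit in animals of 23 to 28 years held 3 against 3 animals, so group size changed along with the age range. There were 130 lower genes with edgeR's exact test and 125 with its quasi-likelihood test. Leaving out 1 animal, the count at an unadjusted p under 0.05 ranged from 76 (without animal 24) to 626 (without 28), with 26 to 300 higher and 44 to 326 lower; it was also over 1.5 times away without animals 21 (83), 22 (226), 23 (290) and 25 (226). List members at that threshold numbered 6, from 2 (without animal 21) to 25 (without 28) leaving out 1 animal, and 25 without animals 23 and 28. The 7 steroid pathway genes went from 0 to 1 past the exact permutation test without animal 27 (FKBP5). The age difference ranged from -0.362 to 1.75 years.

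Among the 31 named genes tried under all alternatives, HSD11B1 (0.066) and TSC22D3 (0.18) turned sign in animals of 23 to 28 years (3 against 3 animals). NR3C2 (-0.039) and FKBP5 (-0.017) turned with quality weights. H6PD turned to -0.031 with median of ratios, -0.013 with equal upper quartiles, -0.080 with age as a covariate and -0.25 with quality weights. H6PD was also at -0.058, -0.079 and -0.070 with edgeR's exact test, its quasi-likelihood test and DESeq2, and at -0.090 in animals of 23 to 28 years. Leaving out 1 animal, H6PD ranged from -0.20 to 0.17, NR3C1 from -0.53 to 0.10 and TSC22D3 from -0.20 to 0.025. Beside the values leaving out 1 animal, 26 of these 31 genes kept their direction. Genes named only as the most abundant member of a list were not among the 31, and several of them turned sign. HSP90AB1 went from 0.014 to -0.022 with edgeR's exact test. Without animals 23 and 28, SNAP25 went from 0.18 to -0.050 and CLU from -0.14 to 0.024. Without animals 23 and 28 the median of all genes was -0.04, and the list medians that turned sign were those of steroid receptors (-0.03), neuropeptides and trophic factors (-0.0033), heat shock genes (0.01), thalamic neuron markers (0.05) and T cell markers (-0.30). The cause of these shifts was not tested. No paired analysis was possible because the groups share no animal or replicate number.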
